A study of Mus musculus with 28 samples.

Results

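The genes described here are 40 interferon-stimulated genes of the mouse, found by symbol among the 25251 genes of the expression table, and all 40 were present. They comprised 4 transcription factors, 5 sensors of foreign nucleic acid, 5 oligoadenylate synthetases (OAS), 3 IFIT proteins, 4 genes of the ISG15 and ubiquitin system, 4 large GTPases, 4 membrane proteins, 3 genes of an ADP-ribosylation complex and 8 other effectors. The genes were selected on measured values, since the list was written after interferon genes had been seen to differ between genotypes in these same libraries, so each difference between Flt3ITD/ITD and Flt3+/+ given here describes the values that chose the list and tests nothing. Differences in the size of the genotype effect between populations are computed from those same values and are likewise a description. Differences in level between Flt3+/+ populations were not used in the choice and were tested.

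RNA sequencing was performed on 28 libraries from C57 BL6 mice aged 8 to 10 wk. Flt3+/+ mice were compared with homozygous Flt3ITD/ITD mice, which carry an activating internal tandem duplication in the receptor tyrosine kinase Flt3, knocked into the endogenous gene and therefore present in every cell. Endothelial cells (ECs, CD45-Ter119-CD31+) and mesenchymal stromal cells (MSCs, CD45-Ter119-CD31-CD166-Sca1+) were sorted from bone lining cells in pools of 100 cells, with 5 libraries of each genotype, and bone marrow mononuclear cells (MNCs) in pools of 200 cells, with 4 libraries of each genotype. The labels give no treatment. Sca1, which was part of the MSC gate, is itself an interferon-inducible surface protein, so the gate bears on the cells that were collected. The MNC libraries are mixtures of blood cell types, and in such bulk samples fewer cells of a type and less RNA per cell cannot be told apart.

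Interferons are secreted by cells that sense infection or damage, and type I interferons bind the receptor pair Ifnar1 and Ifnar2, which activates the kinases Jak1 and Tyk2. The kinases phosphorylate transcription factors of the Stat family, and Stat2 enters the nucleus with Irf9 as part of the complex ISGF3, which binds the interferon-stimulated response element (ISRE) in the promoters of its target genes. The targets include sensors that detect viral RNA, effectors that block viral replication, and feedback inhibitors such as Usp18. Type II interferon acts through another receptor and the GAS element. In bone marrow, interferon is known to drive quiescent hematopoietic stem cells into cycle.

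Promoter sequences from RefSeq (GRCm38.p6, from 250 bases before to 50 bases after the annotated transcription start) were found for 32 of the 40 genes. A core ISRE, GAAANNGAAA on either strand, was present in 15 of these 32 genes (46.9%), against 1079 of 27025 genes with such a window (3.99%). The GAS element TTCNNNGAA, which reads the same on both strands, was present in 8 of 32 genes (25%) against 9.55% of all genes. Of the genes shown, Eif2ak2 alone had a GAS match in its window, and it did not overlap the ISRE. Matches describe letters only, and windows without a match were not searched further. The stretches below, 5′ to 3′ on the strand of the gene with the ISRE in capitals, are shown because these genes carry the values that follow. For Ifit1, Ifit3, Isg15, Gbp3 and Rsad2 they are the 170 bases before the start, and for Eif2ak2 and Ifih1 they are 30 bases around a match that lies after the start.
Ifit1, chr19:34640719-34640888, plus strand: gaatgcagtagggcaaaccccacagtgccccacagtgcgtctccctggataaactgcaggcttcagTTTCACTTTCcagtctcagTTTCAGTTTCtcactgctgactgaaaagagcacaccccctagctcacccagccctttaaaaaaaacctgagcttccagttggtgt
Ifit3, chr19:34583359-34583528, plus strand: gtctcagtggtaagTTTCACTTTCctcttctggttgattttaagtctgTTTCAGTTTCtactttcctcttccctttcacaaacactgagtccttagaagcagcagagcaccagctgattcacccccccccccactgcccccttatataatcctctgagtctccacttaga
Isg15, chr4:156200819-156200988, minus strand: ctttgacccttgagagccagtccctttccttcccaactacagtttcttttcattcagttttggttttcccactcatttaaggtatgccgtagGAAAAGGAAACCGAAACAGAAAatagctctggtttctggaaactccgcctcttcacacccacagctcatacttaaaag
Gbp3, chr3:142559874-142560043, plus strand: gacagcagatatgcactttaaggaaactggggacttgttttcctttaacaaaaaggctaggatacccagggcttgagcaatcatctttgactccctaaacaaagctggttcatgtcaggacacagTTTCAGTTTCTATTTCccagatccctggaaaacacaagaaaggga
Rsad2, chr12:26456453-26456622, minus strand: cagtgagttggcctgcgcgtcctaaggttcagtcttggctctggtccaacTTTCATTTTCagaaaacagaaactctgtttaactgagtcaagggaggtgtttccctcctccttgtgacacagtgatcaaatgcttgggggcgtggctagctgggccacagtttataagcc
Eif2ak2, chr17:78882535-78882564, minus strand: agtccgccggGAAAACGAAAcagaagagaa
Ifih1, chr2:62646206-62646235, minus strand: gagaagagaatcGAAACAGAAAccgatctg
Counted from the start at +1, the matches began at -104 and -85 in Ifit1, at -156 and -122 in Ifit3, at -78, -72 and -66 in Isg15, at -45 and -39 in Gbp3, at -120 in Rsad2, at 19 in Eif2ak2 and at 33 in Ifih1. The overlapping matches of Isg15 and of Gbp3 each form 1 run of capitals. Genes described below whose windows held no ISRE match included Ifit2, Irf9, Irf1, Irf7, Herc6, Xaf1, Oasl1 and Lgals3bp. No window was found for Usp18, Mx1 and Mx2.

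Library totals ranged from 6377010 to 33880700 reads. The EC markers summed to 2355 to 3426 RPKM in EC libraries and to at most 25 RPKM in MSC libraries, and the MSC markers to 29085 RPKM or more in MSC libraries and 3495 to 6190 RPKM in EC libraries. The mean log2 CPM of the MSC markers was -1.15 to 4.44 in EC libraries and 10.03 to 10.81 in MSC libraries. Ly6a (Sca1), which is 1 of these markers, had 21981 to 177375 counts in EC libraries and 27659 to 95959 in MSC libraries. Flt3 reached at most 0.02 RPKM in Flt3+/+ ECs and MSCs and 1.37 RPKM in Flt3ITD/ITD ECs, and ranged from 2.53 to 6.96 RPKM in Flt3+/+ MNCs and from 6.91 to 14.8 RPKM in Flt3ITD/ITD MNCs. A count per gene does not show whether the duplicated allele was transcribed. Several EC and MSC libraries carried blood cell transcripts. The 9 neutrophil markers summed to 29509 RPKM in Flt3ITD/ITD EC library 2 and to at most 1372 RPKM in the other EC libraries, and to 6085 RPKM in Flt3ITD/ITD MSC library 5 and at most 496 RPKM in the other MSC libraries. The value of 1372 RPKM was that of Flt3+/+ EC library 1, and the other Flt3+/+ ECs were at 22.02 to 154 RPKM. Erythroid markers summed to 649 RPKM in Flt3+/+ EC library 1 and to at most 0.19 RPKM in the other EC libraries. The pan-leukocyte markers summed to 648 RPKM in Flt3ITD/ITD EC library 2, 244 RPKM in Flt3ITD/ITD EC library 3, 347 RPKM in Flt3ITD/ITD MSC library 5 and 143 RPKM in Flt3+/+ MSC library 5, and to at most 109 RPKM in the other EC and MSC libraries. Xist was above 5 RPKM in Flt3+/+ EC libraries 2 and 3, Flt3ITD/ITD EC library 3, Flt3+/+ MSC libraries 1 and 4 and Flt3ITD/ITD MSC library 4. No MNC library reached that level. The labels do not give the sex of the animals.

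The genes were first compared across Flt3+/+ populations, a comparison that the choice of the list did not use. ECs and MNCs carried most of the interferon response transcripts and MSCs the least. The mean level was highest in ECs for 24 genes, in MNCs for 16 and in MSCs for none, and 33 of the 40 were lowest in MSCs. The median gene had a mean of 24.1 RPKM in ECs, 13.2 RPKM in MNCs and 5.15 RPKM in MSCs. In Flt3ITD/ITD libraries 36 of the 40 genes were highest in the same population as in Flt3+/+ libraries.

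**Figure D1:**
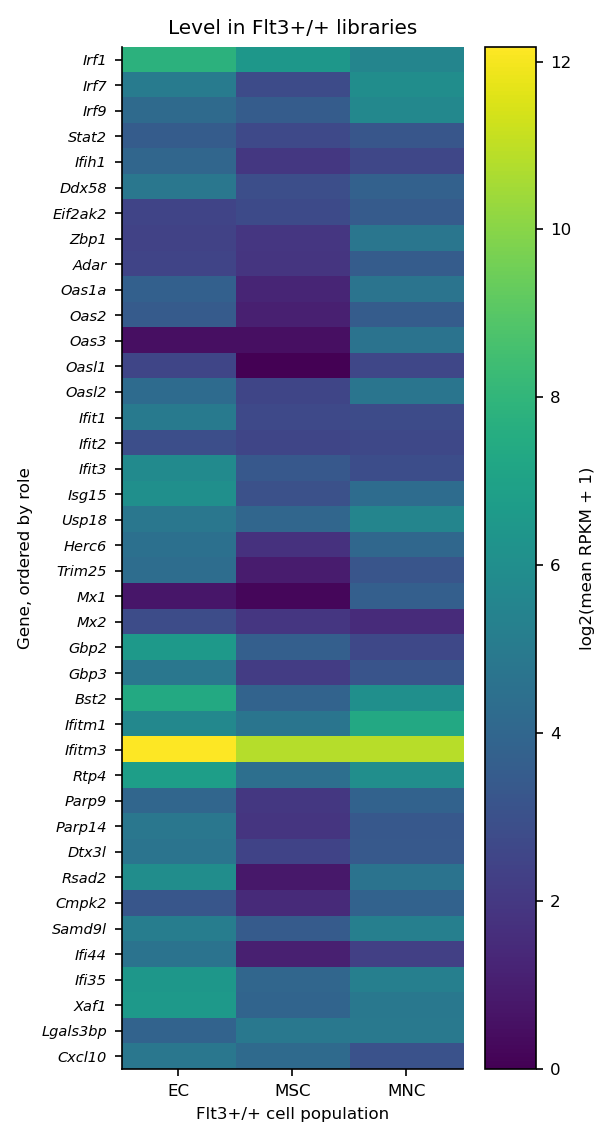
Mean level of each of the 40 genes in Flt3+/+ libraries of the 3 populations, as log2(mean RPKM + 1), with genes ordered by role and n of 5, 5 and 4 libraries. Ifitm3 is the brightest row in every population, and the MSC column is the darkest for 33 genes.

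Ifitm3, a membrane protein that blocks virus entry, was the most abundant in every population. Its level was 5192, 4668, 4931, 3908 and 4386 RPKM in the 5 Flt3+/+ EC libraries, 2416, 1524, 1681, 1903 and 1506 RPKM in MSCs and 2426, 1444, 1739 and 1770 RPKM in MNCs. Every EC library lay above every MSC and MNC library, and the MSC and MNC ranges overlapped. Irf1, a transcription factor induced most strongly by type II interferon, was measured at 408, 99.2, 47.4, 302 and 275 RPKM in ECs, 38.6, 97.6, 106, 89.3 and 103 RPKM in MSCs and 57.1, 36.9, 43.1 and 46.5 RPKM in MNCs. Irf1 differed between ECs and MNCs (log2 difference 2.13, SE 0.49, edgeR adjusted p = 0.00282) and between MSCs and MNCs (0.97, SE 0.37, edgeR adjusted p = 0.0498), but not between ECs and MSCs at an adjusted p under 0.1 (1.17, SE 0.50, edgeR adjusted p = 0.124), and the EC libraries at 47.4 and 99.2 RPKM lay within the MSC range.

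Bst2 encodes tetherin, which holds budding virus at the cell surface. It was present at 224, 114, 123, 169.5 and 217 RPKM in ECs, at 17.6, 25.5, 3.81, 12.3 and 8.02 RPKM in MSCs and at 113, 87.8, 28.2 and 34.2 RPKM in MNCs. All EC libraries exceeded all MSC libraries (log2 difference 3.47, SE 0.57, edgeR adjusted p = 0.000228). Ifitm1, a relative of Ifitm3, showed another order, with 227, 60.4, 257 and 109 RPKM in MNCs, 54.2, 53.8, 51.2, 41.4 and 55.3 RPKM in ECs and 25.5, 25.1, 39.7, 22.6 and 16.3 RPKM in MSCs. It was lower in ECs than in MNCs (log2 difference -1.84, SE 0.42, edgeR adjusted p = 0.00255). Lgals3bp, a secreted glycoprotein, ranked after Ifitm3 and Irf1 in MSCs, with 58.01, 22.4, 24.3, 21.8 and 14.4 RPKM.

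With edgeR's quasi-likelihood test and Benjamini-Hochberg adjustment over all genes tested, 16 of the 40 genes were higher in Flt3+/+ ECs than in MSCs at an adjusted p under 0.1 and none was lower, where 10% of 15174 genes were higher in ECs and 12.1% higher in MSCs. The 16 include Oasl1, Rsad2 and Ifi44, which failed the filter on low counts within MSCs. They entered this fit only through the ECs, so their direction was fixed in advance. DESeq2 called 20 genes higher in ECs and 1 lower, and the share of all genes in that fit is not given here. In edgeR's test 22 of the 40 (55%) had an unadjusted p under 0.05 in either direction, against 28.3% of all genes. The median log2 difference was 2.21 for the 40 genes and 0.05 for all genes tested, and 37 of the 40 were above 0. Between ECs and MNCs the calls went both ways, with 15 genes higher in ECs against a background of 22.7%, and 7 higher in MNCs against 19.6%. In a fit of all 28 libraries the calls were 8 and 7, for which the share of all genes is likewise not given. The median log2 difference was 0.41, against 0.12 for all genes. Between MSCs and MNCs, 2 genes were higher in MSCs (Irf1 and Gbp2), where 25.4% of 16159 genes were, and 20 were higher in MNCs, where 21% were, with a median log2 difference of -1.61 against 0.08. Oasl1 and Rsad2, which are among the 20, likewise entered only through the MNCs.

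The widest gaps between ECs and MSCs were in Oasl1, Rsad2 and Ifi44, which entered the fit only through the ECs. Their p-values are therefore a description. Oasl1, an OAS relative that restrains Irf7 translation, had 0 RPKM in all 10 MSC libraries. Its Flt3+/+ EC values were 0.41, 23.1, 0.06, 0.14 and 0.73 RPKM, so library 2 held nearly all of it. Against a floor of 3 counts in each MSC library, Oasl1 was at least 84.3-fold higher in Flt3+/+ ECs, and at least 5.76-fold higher without EC library 2. In Flt3+/+ MNCs it was at 4.75, 2.17, 2.29 and 10.9 RPKM, at least 87.2-fold above the same floor, and at least 53.2-fold without MNC library 4. Rsad2 (viperin), which makes a chain-terminating nucleotide, reached 27.4, 79.95, 78.8, 73.7 and 46.1 RPKM in ECs and only 0, 0.88, 2.53, 0 and 0.09 RPKM in MSCs, and the groups did not overlap (log2 difference 6.19, SE 1.22, edgeR adjusted p = 0.00131). Ifi44 was measured at 14.6, 16.9, 22.7, 44.7 and 18.7 RPKM in ECs. Its MSC values were 0.06, 0.04, 0.03, 5.38 and 0.02 RPKM, of which 1 library carried nearly all (log2 difference 4.18, SE 1.66, edgeR adjusted p = 0.0954).

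A different set separated MNCs from the niche cells. Oas3, which synthesizes the oligoadenylate activator of RNase L, was at 24.6, 8.77, 34.9 and 27.5 RPKM in MNCs. It stayed between 0.31 and 0.46 RPKM in Flt3+/+ ECs and between 0.30 and 0.56 RPKM in Flt3+/+ MSCs, and the log2 difference was -5.99, SE 0.57, edgeR adjusted p = 4.99e-07 for ECs and -5.81, SE 0.60, edgeR adjusted p = 8.39e-07 for MSCs against MNCs. Mx1, a dynamin-like GTPase, was likewise at 13.1, 18.2, 4.8 and 11.8 RPKM in MNCs, at 0.05, 0.43, 1.57, 0.6 and 0.67 RPKM in ECs and at 0.09, 0.06, 0.36, 0.24 and 0.07 RPKM in MSCs (log2 difference -4.11, SE 0.998, edgeR adjusted p = 0.00404 for ECs and -5.94, SE 0.62, edgeR adjusted p = 9.14e-07 for MSCs against MNCs). Gbp2, a guanylate-binding GTPase, ran the other way. It was at 44.8, 119.7, 118, 74.2 and 122 RPKM in ECs, 18.4, 7.12, 11.98, 13.7 and 7.08 RPKM in MSCs and 6.33, 6.54, 3.97 and 4.14 RPKM in MNCs, higher in ECs than in MNCs by 4.11, SE 0.47, edgeR adjusted p = 3.4e-06 on the log2 scale. For Oas3, Mx1 and Gbp2 alike, the MNC libraries did not overlap the EC libraries. Gbp2 and Gbp3 are close relatives, as are Ifit3 and Ifit3b and Oas1a and Oas1g, so how reads were divided among them is uncertain.

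The variation between libraries of 1 group set the precision of what follows. The median coefficient of variation (SD over mean RPKM) of the tested genes was 0.527 in Flt3+/+ ECs, 0.697 in Flt3+/+ MSCs and 0.313 in Flt3+/+ MNCs, and 0.524, 0.745 and 0.32 in the Flt3ITD/ITD groups. Over all genes tested it was 0.626, 0.492 and 0.344 in Flt3+/+ libraries. In MSCs, 8 of the 37 tested genes had a Flt3+/+ library at or under 3 counts and 9 had such a Flt3ITD/ITD library, whereas in MNCs none and 1 of 40 did. Pools of the same group could differ from none to many transcripts of a gene. Ifit1 in Flt3+/+ MSCs was at 0, 2.1, 0.05, 22.8 and 2.11 RPKM. Zbp1, a sensor of left-handed nucleic acid, was at 0, 0, 10.6, 10.97 and 0 RPKM in Flt3+/+ ECs.

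The mean log2 CPM of the 40 genes gave each library a score. In ECs it was 4.88, 5.54, 5.35, 5.20 and 5.09 in Flt3+/+ and 5.95, 5.73, 5.65, 5.92 and 5.68 in Flt3ITD/ITD libraries, so every Flt3ITD/ITD library lay above every Flt3+/+ library. The means were 5.21 ± 0.25 and 5.79 ± 0.14 (SD, n = 5 each), a difference of 0.57. Without Flt3ITD/ITD library 2, which carried neutrophil transcripts, the difference was 0.59. Without Flt3+/+ library 1, which carried erythroid transcripts and had the lowest score, it was 0.49. In MSCs the score was 2.84, 2.60, 2.60, 3.38 and 2.55 in Flt3+/+ and 2.69, 3.07, 2.23, 3.82 and 3.48 in Flt3ITD/ITD libraries, and the groups overlapped (2.79 ± 0.35 and 3.06 ± 0.63, n = 5 each). The difference of 0.26 dropped to 0.08 without Flt3ITD/ITD library 4 and to 0.16 without library 5, the library with neutrophil transcripts. In MNCs the scores were 5.24, 4.85, 5.38 and 5.81 in Flt3+/+ and 5.47, 5.95, 5.08 and 5.13 in Flt3ITD/ITD libraries, again overlapping (5.32 ± 0.40 and 5.41 ± 0.40, n = 4 each), and the difference of 0.09 was -0.09 without Flt3ITD/ITD library 2 and -0.07 without Flt3+/+ library 2.

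**Figure D2:**
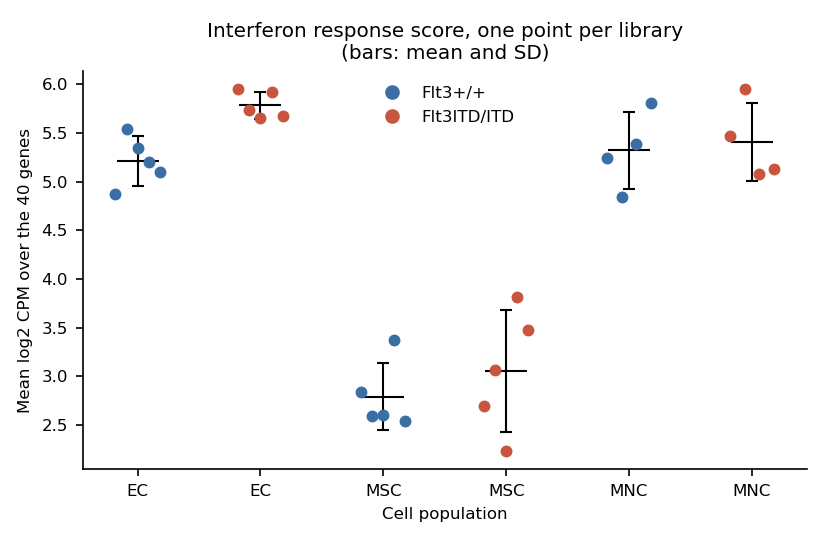
Mean log2 CPM of the 40 genes in each of the 28 libraries, by population and genotype, with bars for the group mean and SD. The 5 Flt3ITD/ITD EC libraries (5.65 to 5.95) sit above the 5 Flt3+/+ EC libraries (4.88 to 5.54), while the MSC and MNC groups overlap.

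Gene by gene, none of the 40 genes tested in ECs, 37 in MSCs or 40 in MNCs passed an adjusted p of 0.1 between genotypes in edgeR's quasi-likelihood test, where 0.0081%, 0.0295% and 0.0144% of all genes did. At an unadjusted p under 0.05 there were 6 (15%), 1 (2.70%) and 6 (15%) genes, against 4.99%, 4.24% and 10.4% of all genes tested. DESeq2 called 2 in ECs (Eif2ak2 and Ifit2), 2 in MSCs (Usp18 and Rsad2) and 3 in MNCs (Ifit2, Mx2 and Gbp3), among 390 of 23495, 216 of 21165 and 457 of 22751 genes called. Of these, Rsad2 was lower in Flt3ITD/ITD MSCs, at a mean of 0.006 RPKM against 0.7 RPKM in Flt3+/+ MSCs. It had at most 1 count in any Flt3ITD/ITD MSC library, and the filter on low counts in edgeR's test removed it. The exact test of edgeR called 1, 0 and 2, among 16, 19 and 164 genes. With edgeR, Oasl1, Rsad2 and Ifi44 were not tested in MSCs because of low counts. The fitted log2 fold change was above 0 for 32 of the 40 EC genes (80%), 29 of the 37 MSC genes (78.4%) and 22 of the 40 MNC genes (55%), against 49.1%, 52.1% and 49.5% of all genes tested. The median fold change on the log2 scale came to 0.41 for ECs, 0.51 for MSCs and 0.12 for MNCs, against -0.01, 0.03 and -0.01. Without Flt3ITD/ITD MSC library 4 the MSC median was 0.10, and the MNC median was -0.05 without Flt3ITD/ITD MNC library 2 and -0.03 without Flt3+/+ MNC library 2. Of the 37 genes tested in all populations, 14 were above 0 in all 3 and 1 was below 0 in all 3.

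**Figure D3:**
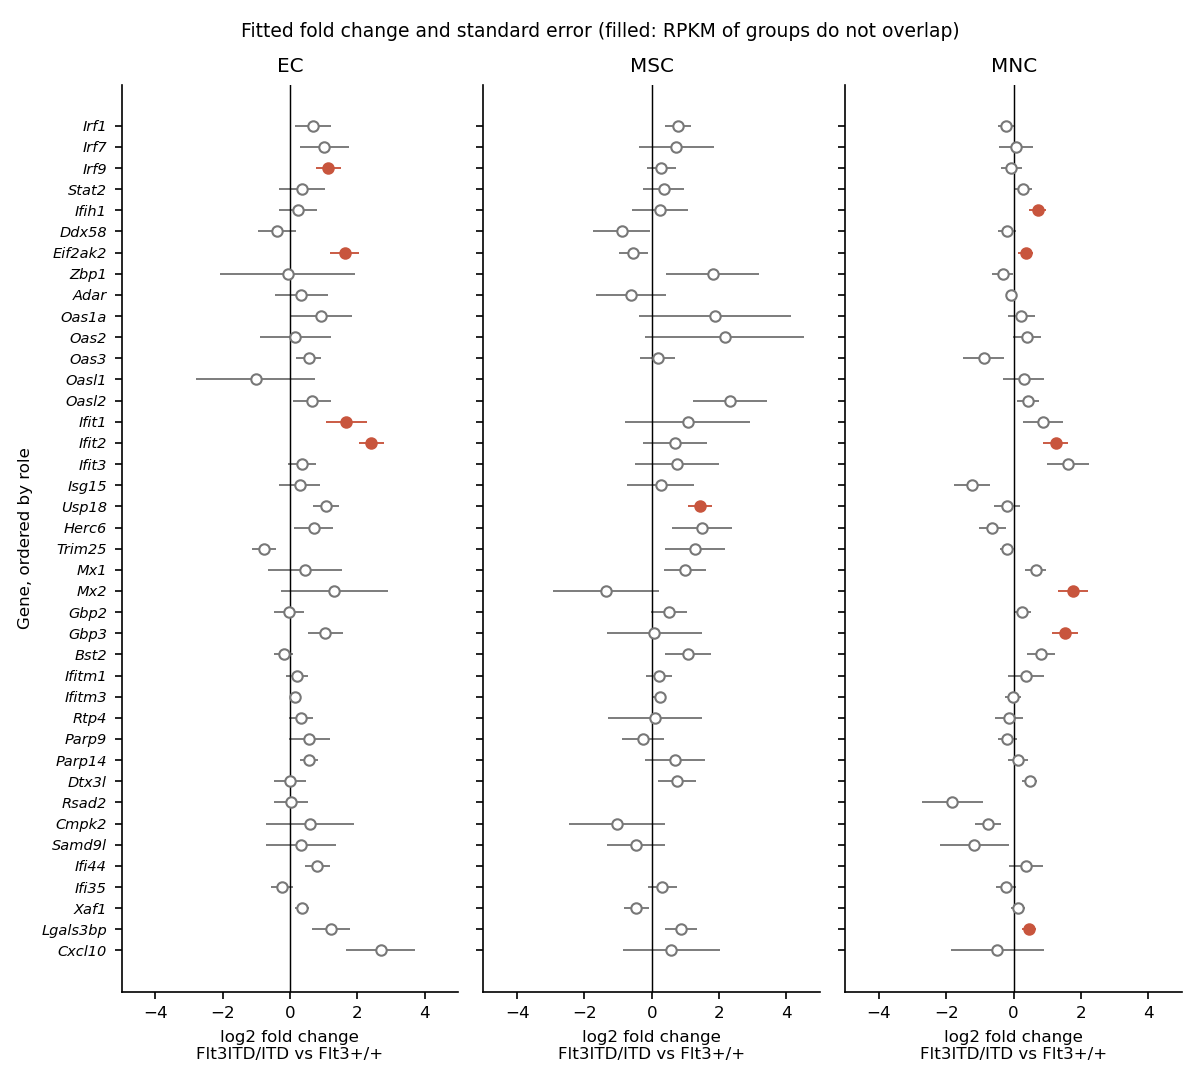
Fitted log2 fold change of each gene, Flt3ITD/ITD against Flt3+/+, with its standard error, in ECs, MSCs and MNCs, with genes ordered by role. Filled red points mark genes whose Flt3ITD/ITD libraries all lie above all Flt3+/+ libraries in RPKM (4, 1 and 6 genes), and genes without a point were not tested.

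Genes whose RPKM in every Flt3ITD/ITD library exceeded that in every Flt3+/+ library numbered 4 of 40 for ECs against 0.599% of genes, 1 of 37 for MSCs against 0.354% and 6 of 40 for MNCs against 5.72%. No gene lay wholly below, where 0.542%, 0.56% and 0.984% of all genes did. In MNCs the log2 ratio of mean RPKM had a median of 0.19 over all genes, a shift that RPKM carries and that scaling by trimmed mean of M values (TMM) removes. In TMM-normalized CPM the same 4 genes remained apart in ECs (background 0.664%) and the same gene in MSCs (0.442%), but 2 in MNCs (3.22%), namely Mx2 and Gbp3.

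Among the IFIT proteins, which bind viral RNA that lacks a host cap, all 3 had fold changes above 0 in each population, with medians of 1.68 in ECs, 0.74 in MSCs and 1.24 in MNCs. Ifit2 in ECs had the lowest adjusted p of the 40 genes in any population. It was at 6.63, 7.23, 9.23, 7.16 and 2.5 RPKM in Flt3+/+ and 26.5, 35.8, 45.1, 38.1 and 26.9 RPKM in Flt3ITD/ITD EC libraries. Every Flt3ITD/ITD value lay above every Flt3+/+ value, and the log2 fold change was 2.42, SE 0.37, edgeR adjusted p = 0.19. In MNCs Ifit2 was at 5.81, 3.43, 3.7 and 7.66 RPKM in Flt3+/+ and 16.3, 20.2, 11.04 and 9.02 RPKM in Flt3ITD/ITD libraries (log2 fold change 1.24, SE 0.38, edgeR adjusted p = 0.415). The groups were apart in RPKM but not in TMM-normalized CPM. In MSCs the groups overlapped, with 1.42, 9.09, 4.05, 7.71 and 2.09 RPKM in Flt3+/+ and 16.4, 10.7, 1.38, 0.12 and 9.34 RPKM in Flt3ITD/ITD libraries.

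Ifit1, whose promoter is printed above, was at 27.9, 49.1, 4.2, 18.7 and 55.5 RPKM in Flt3+/+ ECs. Its values in Flt3ITD/ITD ECs were 116, 56.2, 77.7, 183 and 58.7 RPKM, and the gap between the groups was narrow, from 55.5 to 56.2 RPKM (log2 fold change 1.68, SE 0.61, edgeR adjusted p = 0.927). Ifit3 overlapped between genotypes in every population, with log2 fold changes of 0.37, SE 0.42, edgeR adjusted p = 1 in ECs and 1.61, SE 0.63, edgeR adjusted p = 0.439 in MNCs.

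**Figure D4:**
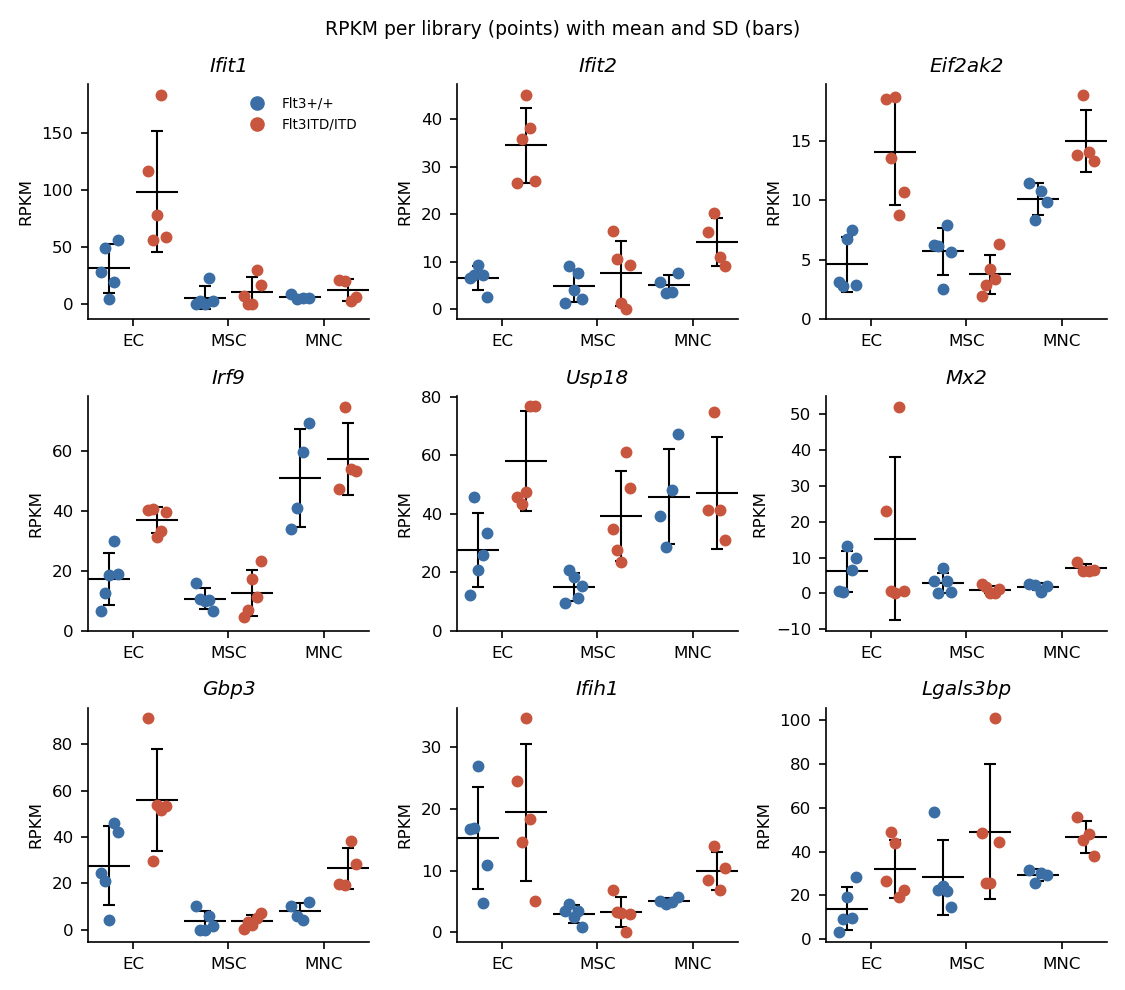
RPKM of 9 genes in every library, by population and genotype, with bars for the group mean and SD. Ifit1, Ifit2, Eif2ak2 and Irf9 separate the genotypes in ECs, Usp18 does so in MSCs, and Mx2, Gbp3, Ifit2, Ifih1, Lgals3bp and Eif2ak2 do so in MNCs. In MNCs only Mx2 and Gbp3 were also apart in TMM-normalized CPM.

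Of the sensors, 3, 2 and 2 of 5 had fold changes above 0 in ECs, MSCs and MNCs. Eif2ak2 encodes the kinase PKR, which halts translation on binding double-stranded RNA. It was at 3.15, 2.8, 6.74, 7.52 and 2.89 RPKM in Flt3+/+ ECs and 18.5, 13.5, 18.7, 8.8 and 10.7 RPKM in Flt3ITD/ITD ECs, without overlap (log2 fold change 1.63, SE 0.44, edgeR adjusted p = 0.74). In MSCs it was at 6.28, 6.19, 2.52, 7.93 and 5.63 RPKM in Flt3+/+ and 1.98, 2.9, 4.26, 3.42 and 6.34 RPKM in Flt3ITD/ITD libraries, with the mean lower in Flt3ITD/ITD. In MNCs the values were 11.5, 8.32, 10.8 and 9.85 RPKM and 13.8, 18.9, 14.04 and 13.3 RPKM, apart in RPKM but not in TMM-normalized CPM. Ifih1 (MDA5), a sensor of long double-stranded RNA, was at 5.12, 4.55, 4.94 and 5.69 RPKM in Flt3+/+ and 8.49, 14.02, 6.83 and 10.4 RPKM in Flt3ITD/ITD MNCs (log2 fold change 0.71, SE 0.25, edgeR adjusted p = 0.419), likewise apart in RPKM only. Its relative Ddx58 (RIG-I) had fold changes below 0 in all populations, -0.38, SE 0.57, edgeR adjusted p = 1 in ECs, and was the only one of the 37 genes to do so. Adar, which edits double-stranded RNA, and Zbp1 overlapped between genotypes everywhere.

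All 4 transcription factors had fold changes above 0 in ECs and in MSCs, and 2 of 4 in MNCs. Irf9, the DNA-binding subunit of ISGF3, was at 6.52, 12.8, 18.8, 30.1 and 19.02 RPKM in Flt3+/+ ECs and 40.5, 40.7, 31.5, 33.3 and 39.8 RPKM in Flt3ITD/ITD ECs, without overlap (log2 fold change 1.14, SE 0.37, edgeR adjusted p = 0.903). In MNCs it was at 34.04, 40.9, 59.7 and 69.4 RPKM and 47.5, 75, 54.3 and 53.5 RPKM, and the ranges overlapped. The MSC values were 16.1, 10.8, 10.1, 10.4 and 6.56 RPKM in Flt3+/+ and 4.61, 7.14, 17.4, 11.5 and 23.5 RPKM in Flt3ITD/ITD libraries. Irf7, which amplifies the production of interferon, was at 27.9, 45.6, 1.58, 59.6 and 25.2 RPKM in Flt3+/+ and 62.3, 50.1, 118, 17.6 and 67.7 RPKM in Flt3ITD/ITD ECs. Its MNC values were 53.5, 50.5, 80.2 and 62.5 RPKM in Flt3+/+ and 95.2, 139, 41.2 and 26.6 RPKM in Flt3ITD/ITD libraries, and the wider spread lay in Flt3ITD/ITD. In MSCs Irf7 was at 14.8, 6.79, 2.45, 4.03 and 0.9 RPKM and 0.02, 18.5, 6.88, 8.2 and 13.2 RPKM. Stat2 overlapped in all populations. It was at 11.9, 15.6, 5.61, 11.1 and 8.22 RPKM and 17.5, 1.08, 28.5, 10.01 and 6.53 RPKM in ECs, at 1.29, 4.79, 7.42, 10.99 and 2.68 RPKM and 2.51, 11.9, 4.82, 7.39 and 6.82 RPKM in MSCs, and at 12.3, 5.8, 7.57 and 8.31 RPKM and 10.5, 15.5, 9.93 and 11.7 RPKM in MNCs, Flt3+/+ first in each case. Irf1 in Flt3ITD/ITD libraries was at 524, 176, 217, 529 and 342 RPKM in ECs, 265, 163, 135, 53.6 and 109 RPKM in MSCs and 48.5, 58.1, 29.8 and 44.5 RPKM in MNCs, overlapping the Flt3+/+ libraries in each population.

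In the ISG15 and ubiquitin system, 3 of 4 genes in ECs, 4 of 4 in MSCs and none of 4 in MNCs had fold changes above 0. Usp18 removes ISG15 from proteins and blocks the type I interferon receptor. It was the single gene to separate the genotypes in MSCs, at 9.45, 20.9, 18.4, 11.3 and 15.5 RPKM in Flt3+/+ and 34.98, 27.8, 23.5, 60.98 and 48.97 RPKM in Flt3ITD/ITD libraries (log2 fold change 1.44, SE 0.35, edgeR adjusted p = 0.999). In ECs it was at 12.4, 45.8, 20.8, 26.04 and 33.3 RPKM and 45.9, 43.4, 47.3, 76.7 and 76.9 RPKM, with Flt3+/+ library 2 inside the Flt3ITD/ITD range (log2 fold change 1.08, SE 0.38, edgeR adjusted p = 0.927). In MNCs the values were 39.1, 28.7, 48.3 and 67.1 RPKM and 41.5, 74.8, 41.3 and 30.9 RPKM, and the groups overlapped. Isg15, the ubiquitin-like modifier itself, overlapped between genotypes in every population. Its values were 141, 52.9, 42.7, 19.9 and 74.97 RPKM in Flt3+/+ and 58.4, 16.2, 93.1, 110.4 and 128 RPKM in Flt3ITD/ITD ECs, 8.85, 8.04, 0.91, 13.6 and 4.05 RPKM and 1.17, 0.76, 9.71, 23.2 and 4.71 RPKM in MSCs, and 10.2, 10.3, 32.6 and 22.8 RPKM and 10.7, 15.04, 5.7 and 7.57 RPKM in MNCs, where the log2 fold change was -1.25, SE 0.54, edgeR adjusted p = 0.466. Herc6, the ligase that attaches ISG15 in mice, was at 3.59, 2.57, 0.97, 0.15 and 4.17 RPKM in Flt3+/+ and 3, 4.72, 1.57, 3.76 and 6.03 RPKM in Flt3ITD/ITD MSCs, and at 9.86, 11.6, 20.1 and 20.7 RPKM and 15.1, 14.5, 9.99 and 9.94 RPKM in MNCs. Trim25, which activates RIG-I, had a log2 fold change of -0.76, SE 0.35, edgeR adjusted p = 1 in ECs.

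The large GTPases were above 0 in 3, 3 and 4 of 4 genes in ECs, MSCs and MNCs, and 2 of them were apart in MNCs in both units. Mx2, a relative of Mx1, was at 2.5, 2.28, 0.46 and 2.2 RPKM in Flt3+/+ and 8.89, 6.23, 6.38 and 6.52 RPKM in Flt3ITD/ITD MNCs (log2 fold change 1.76, SE 0.44, edgeR adjusted p = 0.397). In ECs the same gene varied widely within each genotype, at 0.75, 0.3, 13.3, 6.42 and 10 RPKM and 22.8, 0.68, 0.01, 51.96 and 0.75 RPKM, and in MSCs it was at 3.5, 0.01, 6.99, 3.33 and 0.41 RPKM and 2.5, 1.76, 0.01, 0 and 1.23 RPKM. Gbp3, a guanylate-binding GTPase that acts at pathogen membranes, was at 10.4, 5.78, 3.93 and 11.7 RPKM in Flt3+/+ and 19.6, 19.3, 38.4 and 28.2 RPKM in Flt3ITD/ITD MNCs (log2 fold change 1.52, SE 0.38, edgeR adjusted p = 0.397). In ECs it was at 24.5, 21.1, 4.19, 46.1 and 41.9 RPKM and 91.2, 29.6, 53.8, 51.6 and 53.4 RPKM, overlapping. Mx1 in Flt3ITD/ITD MNCs was at 17.1, 19.1, 26.6 and 20.8 RPKM, and the lowest of these lay below the highest Flt3+/+ MNC value.

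Among the other effectors, Lgals3bp was at 31.7, 25.7, 30.4 and 29.3 RPKM in Flt3+/+ and 55.9, 45.3, 47.9 and 37.8 RPKM in Flt3ITD/ITD MNCs (log2 fold change 0.47, SE 0.21, edgeR adjusted p = 0.478), apart in RPKM but not in TMM-normalized CPM. Cxcl10, a chemokine for T cells, had the largest fitted log2 fold change in ECs (2.70, SE 1.02, edgeR adjusted p = 0.927) but overlapped, at 33.1, 68.3, 5.77, 0.34 and 31.5 RPKM in Flt3+/+ and 51.9, 196, 189, 371 and 82.1 RPKM in Flt3ITD/ITD libraries, and it is named here after its values were seen. Its annotation overlaps Art3. Rsad2 in Flt3ITD/ITD libraries was at 27.3, 122, 83.2, 56.7 and 19.3 RPKM in ECs, 0.01, 0, 0.01, 0.01 and 0 RPKM in MSCs and 9.17, 13.5, 1.2 and 10.1 RPKM in MNCs, where Flt3+/+ MNCs were at 2.57, 12.8, 42.1 and 37.7 RPKM. Xaf1, a pro-apoptotic protein, was at 94.4, 85.2, 102, 85.2 and 91.6 RPKM in Flt3+/+ and 102, 153, 137, 106 and 74.1 RPKM in Flt3ITD/ITD ECs and at 12.2, 13.8, 14.9, 20.9 and 8.18 RPKM and 8.2, 9.55, 3.85, 13.8 and 13.8 RPKM in MSCs. The fold changes of the OAS family were above 0 in 4 of 5, 4 of 4 and 4 of 5 tested genes, those of the membrane proteins in 3, 4 and 2 of 4 and those of the ADP-ribosylation complex (Parp9, Parp14 and Dtx3l) in 2 of 3 in each population, and no gene of these groups separated the genotypes. Parp9 and Dtx3l overlap on the genome and the use of strand in the counting is not stated in the sources used here, so their reads may not be fully separate.

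Whether the genotype effect differed between populations was compared as the difference of the log2 fold changes. Oasl1, Rsad2 and Ifi44 were too low in MSCs for a fold change there, so their fitted differences against MSCs are not given. None of the genes passed an adjusted p of 0.1 between ECs and MSCs, between ECs and MNCs or between MSCs and MNCs in edgeR's quasi-likelihood test, where 0.00659%, 0.0321% and 0.0371% of all genes did. At an unadjusted p under 0.05 there were 4, 3 and 2 genes, Rsad2 among the 4 and among the 2, against 7.09%, 8.51% and 7.68% of all genes. DESeq2 called 2 (Eif2ak2 and Rsad2), 0 and 0, among 449, 373 and 341 genes. The smallest p between ECs and MSCs belonged to Eif2ak2, with a difference of 2.19, SE 0.57, edgeR adjusted p = 0.366. Its fold change was above 0 in ECs and below 0 in MSCs. Rsad2 followed, with at most 1 count in each Flt3ITD/ITD MSC library. For Xaf1 the difference was 0.82, SE 0.37, edgeR adjusted p = 0.678. Between ECs and MNCs the smallest p values were those of Eif2ak2 (1.26, SE 0.50, edgeR adjusted p = 0.48), Irf9 (1.19, SE 0.50, edgeR adjusted p = 0.517) and Usp18 (1.25, SE 0.57, edgeR adjusted p = 0.574). Between MSCs and MNCs they were those of Usp18 (1.65, SE 0.54, edgeR adjusted p = 0.465), Rsad2 and Herc6 (2.12, SE 1.05, edgeR adjusted p = 0.686). Between ECs and MNCs, where all 40 genes had a fold change in both, the median difference was 0.42, against -0.04 over all genes. Comparisons that share a population share its libraries.

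In MNCs the genotype difference of the interferon genes changed with the library number. Same-numbered libraries were not taken as pairs. Immediate-early genes, which are induced within minutes of cell handling or stimulation, summed to 526 to 839 RPKM in MNC libraries 1 and 2 of both genotypes and to 42.1 to 72.1 RPKM in libraries 3 and 4. In libraries 1 and 2, 36 of the 40 genes had a higher mean log2 CPM in Flt3ITD/ITD than in Flt3+/+ (median difference 0.63), and in libraries 3 and 4 only 13 did (median difference -0.39). Over all genes tested the shares were 50.6% and 52.8%. Higher in the first pair of numbers and lower in the second were 24 genes, and 12 were higher in both. The score difference was 0.66 in libraries 1 and 2 and -0.49 in libraries 3 and 4. The mean score was 5.05 in Flt3+/+ libraries 1 and 2 and 5.60 in Flt3+/+ libraries 3 and 4. In Flt3ITD/ITD libraries it was 5.71 and 5.11, so the 2 genotypes moved in opposite directions.

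Gbp2 went the other way, with -0.14 and 0.65. The 24 genes higher in the first pair and lower in the second included Rsad2, with differences of 0.98 and -3.92, Isg15 with 0.32 and -2.45, Oas3 with 0.63 and -2.57, Irf7 with 1.16 and -1.50 and Usp18 with 0.75 and -1.08. Those above 0 in both pairs included Ifit2 (2.04 and 0.50), Ifit3 (2.65 and 1.27), Mx2 (1.65 and 2.25) and Gbp3 (1.35 and 1.87). A fit of libraries 3 and 4 alone, with 2 libraries per group, called 6 of the 40 genes at an adjusted p under 0.1 (Irf7, Oas3, Isg15, Herc6, Cmpk2 and Samd9l, all lower in Flt3ITD/ITD), among 1192 of 13970 genes called. A fit of libraries 1 and 2 by edgeR called none of the 40 and 0 of 14252 genes. Both splits were made after seeing the data and use the values that chose the list. Neutrophil markers dropped in Flt3ITD/ITD MNC libraries 3 and 4. They summed to 42599 and 58007 RPKM there, and to 156051 RPKM or more in each of the other 6 MNC libraries. The Flt3+/+ sums were 204230, 176402, 165518 and 166606 RPKM, so in libraries 3 and 4 these markers differed between genotypes. Plasmacytoid dendritic cell markers summed to 155 to 219 RPKM in libraries 1 and 2 and 54.7 to 98.1 RPKM in libraries 3 and 4 of both genotypes. Erythroid markers summed to 2.66, 408, 1315 and 951 RPKM in Flt3+/+ and 145, 179, 49.4 and 70.5 RPKM in Flt3ITD/ITD MNCs. All 6 B cell markers had fold changes below 0 in MNCs, with a median of -1.09. Monocyte and macrophage markers summed to 1939 to 3598 RPKM in Flt3+/+ and 3505 to 4915 RPKM in Flt3ITD/ITD MNCs, and Ifng was counted in 4 of 8 MNC libraries. The part of these cell types in the interferon values was not tested. The labels give no preparation date for any library.

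**Figure D5:**
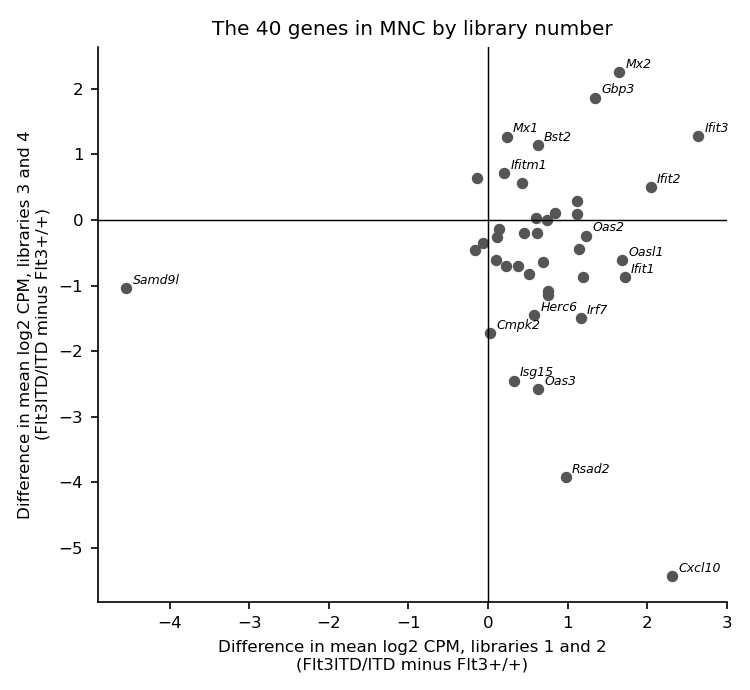
Difference in mean log2 CPM between Flt3ITD/ITD and Flt3+/+ MNCs for each of the 40 genes, in libraries 1 and 2 (horizontal axis) and in libraries 3 and 4 (vertical axis), with names given to the genes farthest from the centre. The lower right part holds the 24 genes that were higher in the first pair and lower in the second.

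Single libraries also carried the response in part. Flt3ITD/ITD MNC library 2 was the highest of its group for 27 of the 40 genes (67.5%, against 26.6% of all genes tested), Flt3+/+ MNC library 4 for 18 (45%, against 27.1%), Flt3+/+ EC library 3 for 17 (42.5%, against 21.9%) and Flt3ITD/ITD MSC library 4 for 16 of 37 (43.2%, against 26.3%). In Flt3ITD/ITD MSC library 4 Oasl2 was at 83.9 RPKM and Zbp1 at 33.4 RPKM, where the other MSC libraries of both genotypes reached 13.8 RPKM and 6.73 RPKM. That library was also the only Flt3ITD/ITD MSC library with Xist above 5 RPKM (6.22 RPKM). Whether this bears on its values was not tested.

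The other genes of the pathway were read from lists that were likewise drawn up with these data known, and none of their genes passed an adjusted p of 0.1 between genotypes in edgeR's quasi-likelihood test in any population. Their counts at an unadjusted p under 0.05 stand beside 4.99%, 4.24% and 10.4% of all genes in ECs, MSCs and MNCs. Of the interferon ligands, the table held 15 and 1 of them, Ifng, passed the filter on low counts, in MNCs. The interferon alpha genes reached at most 3 counts in any library, Ifnk at most 14 and Ifnz at most 38. Ifnb1 was counted once in 1 EC library and in no other. Ifng was found only in MNCs, with 76, 26, 0 and 93 counts in Flt3+/+ and 0, 0, 0 and 36 in Flt3ITD/ITD libraries.

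Of the receptors and Jak-Stat components, 5 of 10, 8 of 10 and 7 of 11 tested in the respective populations had fold changes above 0, and 2, 1 and 2 had an unadjusted p under 0.05. Ifnar1, the type I receptor chain, was at 35.8, 38.6, 29.2, 25.5 and 24.1 RPKM in Flt3+/+ and 12.4, 14.5, 13.3, 20.9 and 19.04 RPKM in Flt3ITD/ITD ECs, without overlap, with the Flt3ITD/ITD libraries below. Sensors, adaptors and kinases were above 0 in 5 of 10, 7 of 12 and 11 of 14 genes, with an unadjusted p under 0.05 in 0, 1 and 4. In MNCs the DNA sensor Mb21d1 (cGAS) averaged 4.05 RPKM in Flt3+/+ and 8.10 RPKM in Flt3ITD/ITD libraries and its adaptor Tmem173 (STING) 31.4 and 61.0 RPKM. Of the negative regulators, 4 of 9, 4 of 9 and 6 of 9 were above 0 and 1, 1 and 0 had an unadjusted p under 0.05, among them Ptpn2, a phosphatase of Jak kinases, with a mean of 13.2 RPKM in Flt3+/+ and 27.97 RPKM in Flt3ITD/ITD MSCs.

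The GTPases induced by type II interferon were above 0 in 14 of 17, 8 of 9 and 14 of 16 tested genes, with medians of 0.67, 1.36 and 0.35 on the log2 scale and an unadjusted p under 0.05 in 0, 2 and 1. Iigp1 averaged 4.03 RPKM in Flt3+/+ and 27.6 RPKM in Flt3ITD/ITD MSCs and Gbp7 9.98 and 22.6 RPKM in MNCs. Of the other interferon-stimulated genes, 28 of 46, 33 of 48 and 31 of 52 were above 0, and 1, 5 and 18 had an unadjusted p under 0.05. In MNCs these included the DNA-binding HIN200 proteins Ifi203, at a mean of 41.8 RPKM in Flt3+/+ and 93.6 RPKM in Flt3ITD/ITD libraries, and Mnda, at 33.4 and 65.5 RPKM, while Ifitm6 averaged 2188 RPKM in Flt3+/+ and 1036 RPKM in Flt3ITD/ITD MNCs.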

How the data were processed

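RNA of sorted ECs, MSCs and MNCs was amplified with an ultra-low-input kit (15 PCR cycles) and sequenced as 51-bp single-end reads. The authors aligned reads with Bowtie to mm10 transcripts, discarded reads without a unique position and quantified genes with RSEM. The counts deposited by the authors are RSEM estimates given as whole numbers, and the RPKM values deposited by the authors (reads scaled by transcript length and library total) are printed to 2 decimals. Tool versions and strand are not given in the sources used here. Unique mapping lowers counts of genes with near-identical copies.

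Counts were tested with edgeR 4.0.16 (quasi-likelihood test, TMM, filter on low counts, R 4.3.3) with Benjamini-Hochberg adjustment over all genes tested and a threshold of 0.1. Genotypes were compared within each population, and levels and differences of genotype effect between each pair of populations. Per-library scores were mean log2 CPM with a prior count of 1. Alternatives were DESeq2 1.42.0, edgeR's exact test, other size factors, no filter, a fold rule, other prior counts, other samples in the fit, a replicate block and each library left out. The script was tested on simulated data. Totals ranged from 6377010 to 33880700 reads in ECs, 10674200 to 33714500 in MSCs and 14260900 to 22149200 in MNCs, and intervals for them would cover counting error only, since PCR copies are not separate molecules. Groups and library numbers follow the labels, which do not tie libraries to mice or dates. The paper describes its 4 to 5 libraries per genotype as biological replicates. In its principal component plot each point stands for a population of 1 mouse. The p-values measure the spread between these libraries, of which a part may be technical.

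The members and gene lists were chosen with earlier results of these data known. Named with values in every library were, per population, up to 5 genes with the largest fold change among those whose groups did not overlap and the 3 most abundant, per pair of populations the 3 with the smallest p of the effect difference and the 3 with the largest level difference, and Irf7, Irf9, Stat2, Isg15 and Eif2ak2. Of the other lists, up to 3 genes with the smallest p were eligible. The MNC splits by library number, the joint removal of libraries with leukocyte transcripts and the use of TMM-normalized CPM for overlap were chosen after seeing the data.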

Additional observations from a re-analysis of the deposited data

Results flagged for a closer look

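In 26 groups of 4 or 5 libraries examined, 2 held a library far from the others of its group, where chance gives about 1 in 20. Both concerned Mx2 in MNCs. In Flt3+/+ MNCs, library 3 was lowest at 0.46 RPKM, where the others ranged from 2.2 to 2.5 RPKM. In Flt3ITD/ITD MNCs, library 1 was highest at 8.89 RPKM, where the others ranged from 6.23 to 6.52 RPKM. Leaving out Flt3+/+ library 3 gave a log2 fold change of 1.45 in place of 1.76.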

How the results depend on the processing

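The number of the 40 genes called between genotypes was 0 in each population in edgeR's quasi-likelihood test, 2 in ECs, 2 in MSCs and 3 in MNCs with DESeq2, and 1 in ECs and 2 in MNCs with edgeR's exact test. The cause was not tested. With MNC libraries 1 and 2 alone, the median log2 fold change was 0.59 and the score difference 0.66. With MNC libraries 3 and 4 alone, 6 genes were called among 1192 of 13970 genes, the median was -0.36 and the score difference -0.49. Genes whose genotype effect differed between ECs and MSCs numbered 2 with DESeq2 (Eif2ak2 and Rsad2), among 449 genes called. In a fit of all 28 libraries there was 1 (Eif2ak2), among 64 genes called. Rsad2 was too low in MSCs for a fold change there. Of the other 271 recomputed summary values, counts stayed within 1.5 times. Medians and score differences moved by less than the pooled SD of the score between libraries (0.20 in ECs, 0.51 in MSCs and 0.40 in MNCs). In MSCs and MNCs that SD was at least as large as the values themselves, so a value could fall to 0 within it. The MNC median turned to -0.03 without Flt3+/+ library 2 and -0.05 without Flt3ITD/ITD library 2, and the MNC score difference to -0.07 and -0.09. Genes higher in ECs than in MNCs numbered 15, and 8 in a fit of all 28 libraries. Leaving out 1 library at a time, the median ranged from 0.36 to 0.58 in ECs, 0.10 to 0.69 in MSCs and -0.05 to 0.21 in MNCs, the score difference from 0.49 to 0.66, 0.08 to 0.47 and -0.09 to 0.25, and the genes that differed in level from 13 to 18 between ECs and MSCs, 20 to 23 between ECs and MNCs and 16 to 23 between MSCs and MNCs, while genotype and effect calls stayed at 0. With the replicate block, members called were 0 in each population and the medians were 0.42, 0.25 and 0.12. Same-numbered libraries correlated in their deviations at -0.02 to 0.04 in ECs, 0.03 to 0.06 in MSCs and -0.07 to 0.03 in MNCs, so the numbers were not taken to pair them. In MSCs, genes at or under 3 counts in a library limit what depth can show.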
